A study of Anolis chlorocyanus and Anolis cybotes and Anolis osa with 24 samples.

Results

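The comparison concerned jaw and leg muscle of Anolis osa and A. sagrei, which belong to the Norops clade of anoles, set against the same muscles of A. chlorocyanus and A. cybotes. Its members were the 12 libraries of osa and sagrei among the 24 of the series, taken from the species named in the sample titles. Jaw and leg counts were added for each title number, which gave 3 sums for each of the 4 species and 6 sums on each side. All libraries were RNA sequencing of whole muscle from male lizards without a stated treatment or age. The title numbers were 04, 05 and 07 in osa, 15, 16 and 17 in sagrei, 04, 06 and 08 in chlorocyanus, and 01, 03 and 08 in cybotes. The labels name the species but not the clade, and they do not say in words that a title number is an animal.

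Norops is a species-rich branch of the genus Anolis that spread over the Central and South American mainland and also holds Caribbean species. A. sagrei, the brown anole, is a Caribbean species that perches low on trunks and runs on the ground, while A. osa comes from the mainland. A. cybotes, of Hispaniola, has the same trunk-ground habit as sagrei but lies outside Norops, and A. chlorocyanus lives in tree crowns of the same island. Jaw muscles close the mouth in feeding and in fights between males, and leg muscles drive running and jumping. With 2 species on a side a difference tied to the clade cannot be told apart from separate changes in single species.

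The sums held between 2821112 and 3760152 counts, and 3 counts, the floor used here for a count of 0, came to between 0.631 and 1.23 CPM, the count scaled to the usual per-library unit. CPM values here use TMM factors, which correct for differences in composition between libraries. Osa and sagrei sums had 2952200 ± 137931 counts and 13185 ± 269 detected genes (SD, n = 6). The chlorocyanus and cybotes sums had 3125880 ± 336797 counts and 13245 ± 249 detected genes. Neither measure differed between the sides by a two-sided exact permutation test over the 12 sums (p = 0.299 and 0.695, both 0.926 after Benjamini-Hochberg adjustment over 4 measures). The chlorocyanus 08 sum stood apart, with the highest total and 19.9% of its counts in its 10 most abundant genes, where the other 11 sums had 25.8% to 31.2%. The table has gene identifiers without symbols. For this reason the functions of the genes are not stated, and the labelled muscle could not be checked against markers of fibre and cell types.

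Osa and sagrei were the most alike of the 6 pairs of species, by a modest margin. Their mean log2 CPM differed by a median of 0.504 over the 9908 genes tested. The next pair was sagrei and cybotes, at 0.537. The pair outside the clade, chlorocyanus and cybotes, differed by 0.593, and chlorocyanus and osa by 0.608. The numbers of genes called at an adjusted p of 0.05 (edgeR quasi-likelihood test, Benjamini-Hochberg) followed the same order at both ends. Osa and sagrei differed in 1351 genes (13.6% of those tested), sagrei and cybotes in 1548 (15.6%), sagrei and chlorocyanus in 1914 (19.3%) and osa and cybotes in 1919 (19.4%). Chlorocyanus and cybotes differed in 2172 (21.9%) and chlorocyanus and osa in 2432 (24.5%). Pairs that share a species share its sums, so these counts are set side by side and their differences were not tested. The count for osa and sagrei rested on few sums, and ranged from 795 without osa 04 to 1757 without chlorocyanus 08. It was 809 without osa 05, 985 without osa 07, 898 without sagrei 15, 893 without sagrei 16 and 886 without sagrei 17. Each of these fits has fewer sums in the pair itself. Such counts were not taken for the other pairs, so whether the order of the pairs holds was not tested.

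**Figure D1:**
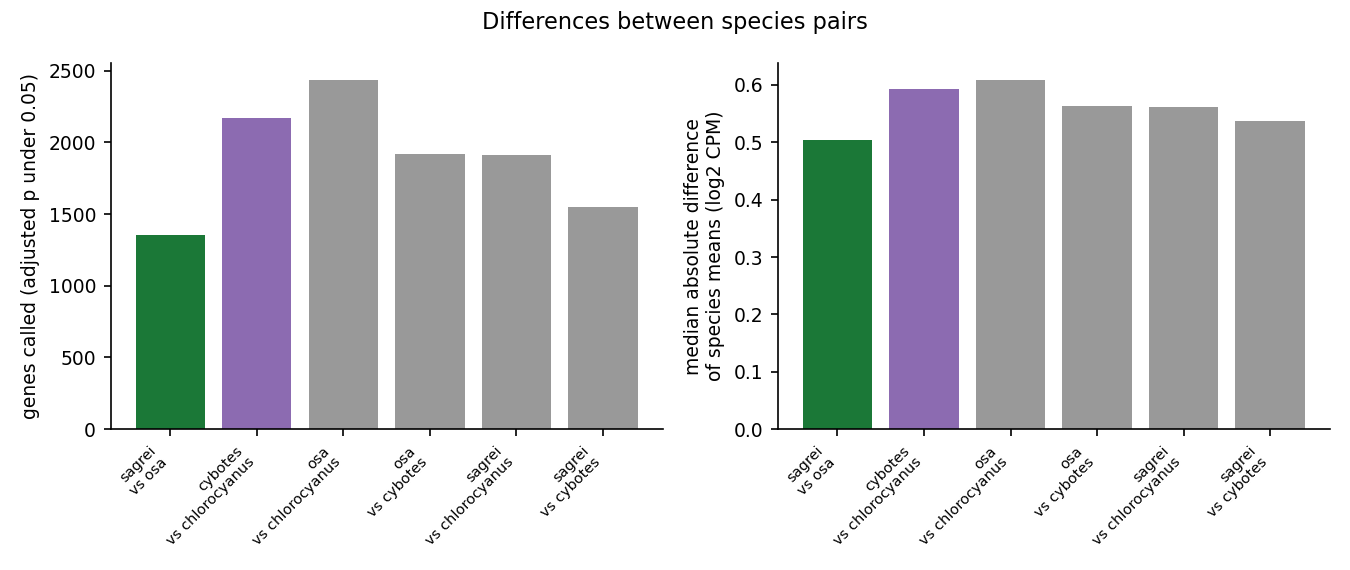
The left panel shows the number of genes called between each pair of species, and the right panel the median absolute difference of species means in log2 CPM over 9908 genes. The bar of sagrei and osa (green) is the lowest in both panels, and the pair outside the clade (purple) has 2172 called genes.

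Distances between single sums were taken as the root mean square difference in log2 CPM over all tested genes. Sums of the same species lay 0.729 apart on average in osa, 0.767 in cybotes, 0.801 in sagrei and 0.905 in chlorocyanus. Osa and sagrei sums lay 1.13 apart on average over their 9 pairs, with a range of 1.07 to 1.23. Cybotes and sagrei sums lay 1.15 apart, with a range of 1.09 to 1.23, so the 2 ranges overlapped almost wholly. For osa 04, 05 and 07, the nearest sum of another species was a sagrei sum, and for sagrei 15 and 16 it was an osa sum. For sagrei 17 it was cybotes 08, at 1.09. All 3 cybotes sums had a sagrei sum as their nearest. For chlorocyanus 04 and 06 it was cybotes 01, and for chlorocyanus 08 it was sagrei 17. Sagrei was thus near to sums outside the clade as well as to osa.

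None of the first 4 principal components fully separated the 6 osa and sagrei sums from the other 6, and the first came close. The component PC1 held 26.4% of the variance. It placed osa, at -48.9 to -35.9, at one end and chlorocyanus, at 48.1 to 81.2, at the other. Sagrei, at -18.0 to -11.3, and cybotes, at -11.3 to -4.24, lay next to each other in between. Along PC1 the osa and sagrei sums came first and the others after them, except that sagrei 17, at -11.29, had changed places with cybotes 08, at -11.33. On PC2, with 21.8%, cybotes lay at -62.4 to -54.9 and every other sum above 0. On PC3, with 17.6%, sagrei lay at -55.7 to -52.9 and the other species above 0. PC2 and PC3 thus each set a single species apart.

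**Figure D2:**
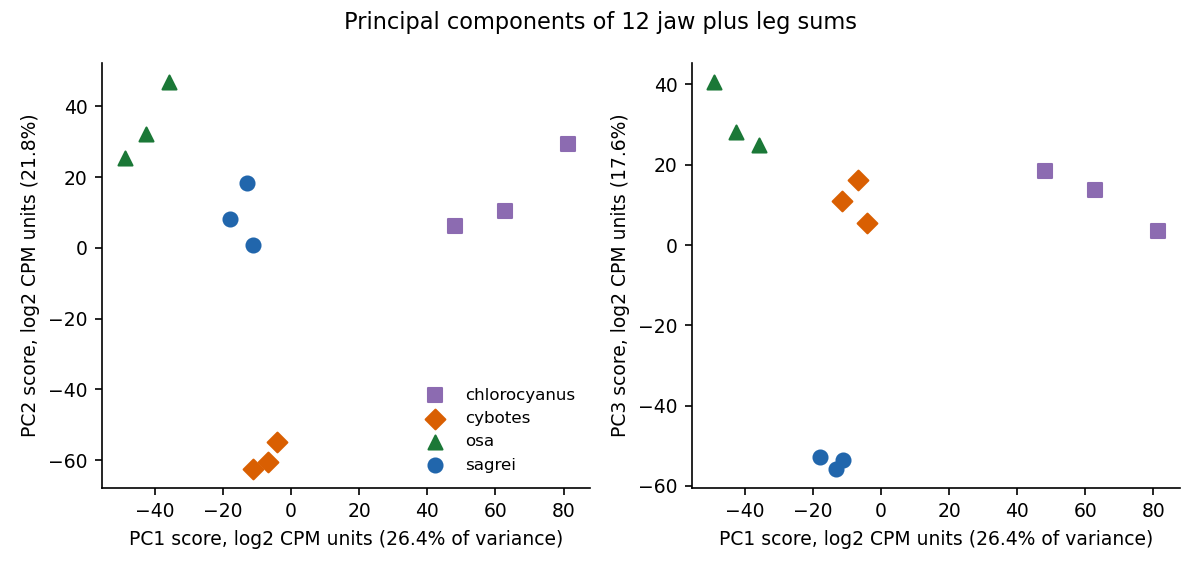
Scores of the 12 sums on PC1 and PC2 (left) and on PC1 and PC3 (right), in log2 CPM units, with one symbol per species. Osa lies at the low end of PC1, sagrei and cybotes lie near each other on it, and cybotes is set off on PC2 and sagrei on PC3.

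The clade contrast asked which genes differed between the mean of osa and sagrei and the mean of chlorocyanus and cybotes. Of 9908 genes, 2153 passed the threshold (21.7%) in the edgeR quasi-likelihood fit. Of these, 1056 were higher (10.7%) and 1097 lower (11.1%) in osa and sagrei. The test sets the difference against the spread between sums of one species, with 8 residual degrees of freedom per gene. The fit also moderates this spread across genes, so the p-values borrow from all genes tested. The contrast is no test over species, since 2 species against 2 allow no exact permutation p below 0.333. The contrast between the trunk-ground species cybotes and sagrei and the other pair, which uses the same sums, called 1652 genes (16.7%), 807 higher and 845 lower in the trunk-ground species. Both counts share all 12 sums and their difference was not tested.

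A gene can pass such a contrast because a single species is extreme. Genes were therefore kept as same-side genes where the means of osa and sagrei both lay above, or both below, the means of chlorocyanus and cybotes. Of the 2153 called genes, 1692 (78.6%) met this condition, which is 17.1% of all genes tested. They were 825 genes higher (8.33%) and 867 genes lower (8.75%) in osa and sagrei. For the trunk-ground contrast the like share was 1225 of 1652 genes (74.2%). Whether called or not, the 2 highest species of every gene fall into one of 3 pairings. Osa and sagrei were paired, at the top or at the bottom, in 3549 of the 9908 genes (35.8%). Cybotes and sagrei were paired against chlorocyanus and osa in 3091 (31.2%), and osa and cybotes against chlorocyanus and sagrei in 3268 (33.0%). The Norops pairing was thus the most frequent of 3 that took similar parts of the genes, and these shares were not tested.

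In the 461 called genes that were not on one side, the species of a pair did not stay together. In 402 of them 1 clade member and 1 other species stood at the ends while the remaining pair had crossed over. In 59 the species of one side stood at opposite ends, with the other side between them. Chlorocyanus stood at the end that the contrast gave to its own side in 254 of the 461 genes (55.1%), and osa in 243 (52.7%). Cybotes stood at the end of its own side in 186 (40.3%) and sagrei in 180 (39.0%). A species at the end of the opposite side was not counted. These shares describe the genes that the condition removed.

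The gap that made a gene same-sided was about as wide as the difference within each side. For the 825 genes higher in osa and sagrei, the nearest species means across the divide lay a median of 0.50 log2 CPM apart. Osa and sagrei themselves differed by a median of 0.52 at these genes, and chlorocyanus and cybotes by 0.54. For the 867 lower genes the medians were 0.51, 0.48 and 0.55 in the same order. The gap exceeded both differences within the sides in 278 of the higher and 290 of the lower genes. Osa and sagrei were called as different from each other in 111 of the higher and 84 of the lower genes, by the edgeR test over all genes (13.6% called). Osa was the more extreme clade member in 456 of 825 higher genes and in 486 of 867 lower genes.

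Requiring every sum to be on its side left fewer genes. In 495 same-side genes (5% of those tested) the 6 osa and sagrei sums did not overlap with the other 6. They were 243 higher (2.45%) and 252 lower (2.54%) genes. The jaw and leg libraries are the parts of these sums, so their values describe the genes and are no repeat of the result. The 12 jaw libraries did not overlap between the sides in 128 of the 243 higher and 136 of the 252 lower genes, and the 12 leg libraries in 128 and 146. Over all 9908 genes this was so for 1.88% (higher) and 2.05% (lower) in jaw and for 1.77% and 2.04% in leg. Neither muscle overlapped in 60 higher and 79 lower genes, against 0.616% and 0.797% of all genes.

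The strictest set held the genes called separately, and in the same direction, in all 4 pairs of a clade member with another species. There were 163 such genes (1.65% of those tested), 73 higher (0.737%) and 90 lower (0.908%) in osa and sagrei. Their median log2 difference was 2.13 in the higher and -1.95 in the lower genes, and the median absolute difference over all tested genes was 0.44. The choice of these genes fixes the sign and raises the size, so the medians are a description. By species pair the median of the 73 higher genes was 2.07 for osa against chlorocyanus, 1.93 for osa against cybotes, 2.01 for sagrei against chlorocyanus and 1.88 for sagrei against cybotes. For the 90 lower genes the medians were -1.93, -1.97, -1.92 and -1.94 in that order. Osa and sagrei differed from each other in 4 of the higher and 6 of the lower genes, against 13.6% of all genes tested. The choice of these genes can affect this number, and its effect was not tested. The sums did not overlap in 70 of the 73 and 89 of the 90 genes, against 502 of all 9908 genes. The calls in all pairs nearly fix this. Neither muscle overlapped in 43 and 60 of them, against 0.616% and 0.797% of all genes. The libraries are parts of the sums, so the choice of these genes favours this separation too. The count of 163 changed when single sums were left out, in most cases downward. It was 98, 122 and 116 without osa 04, 05 and 07. Without sagrei 15, 16 and 17 it was 120, 104 and 124. Leaving out cybotes 01, 03 and 08 gave 100, 104 and 105. Leaving out chlorocyanus 04, 06 and 08 gave 156, 100 and 186.

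**Figure D3:**
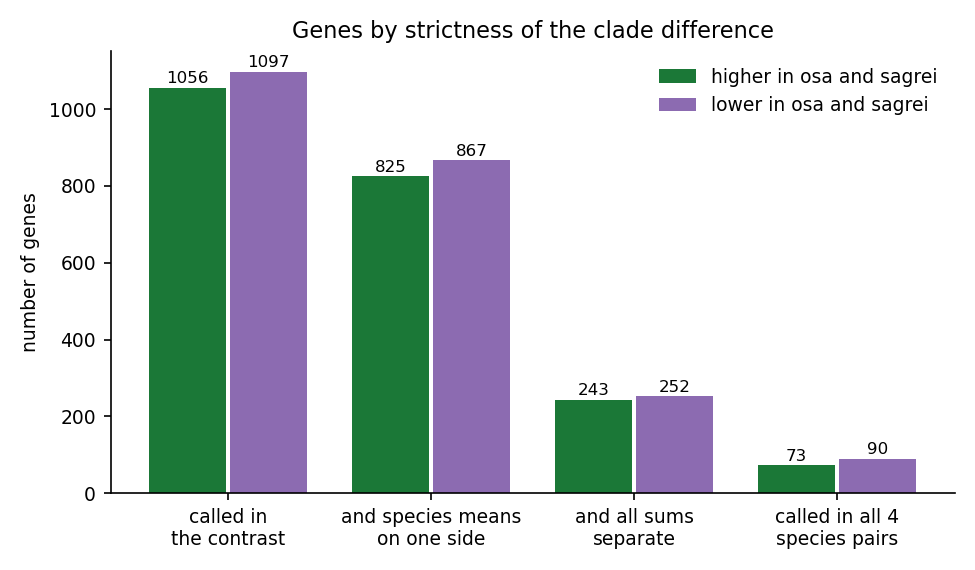
Bars show the number of genes higher (green) or lower (purple) in osa and sagrei, from the contrast alone to the genes called in all 4 species pairs. The sets shrink from 1056 higher and 1097 lower genes to 73 and 90. With library sizes that leave out the 20 most abundant genes, used without TMM factors, the balance turns. The counts are then 1149 and 935, and 77 and 71.

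Same-side genes, 17.1% of all genes tested, were found at low and high abundance. They made up 17.3% of the 3605 genes under 10 CPM, 17.7% of the 5073 genes from 10 to 100 CPM and 14.5% of the 1140 genes from 100 to 1000 CPM. Of the 90 genes over 1000 CPM, 4 were same-side (4.44%), and none was among the 163 genes called in all species pairs, although 5 of the 90 were called in the contrast. The rates of the classes were not compared by a test. Of the 100 most abundant genes, 3 were same-side and higher in osa and sagrei and 3 were lower. The most abundant same-side gene ranked 62nd of all and stood at 1120 ± 462 CPM in osa and sagrei against 1837 ± 386 CPM in the other species (SD, n = 6). Its log2 difference was -0.80 (SE 0.21, edgeR adjusted p = 0.0157), and its sums overlapped between the sides.

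The share of the counts held by same-side genes gives their weight in the transcriptome. The 825 higher genes held 4.87% ± 0.335 of the counts in osa and sagrei and 2.35% ± 0.252 in the other species (SD, n = 6). By species the means were 4.999% in osa, 4.75% in sagrei, 2.37% in chlorocyanus and 2.32% in cybotes. The 867 lower genes held 2.91% ± 0.195 of the counts in osa and sagrei and 5.63% ± 1.01 in the other species. The species means of these lower genes were 2.77% in osa, 3.05% in sagrei, 6.05% in chlorocyanus and 5.21% in cybotes. The genes were chosen on these sums, so the shares are a description. Whole muscle was sequenced, and a different number of cells of a type cannot be told apart here from a different amount of RNA per cell.

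Among the 163 genes called in all species pairs, 5 higher and 8 lower genes exceeded 100 CPM over the 12 sums. The most abundant higher gene stood at 840 to 1177 CPM in the osa and sagrei sums and at 196 to 550 CPM in the other sums. Its means were 992 ± 138 and 407 ± 141 CPM (SD, n = 6), a log2 difference of 1.35 (SE 0.19, edgeR adjusted p = 0.000387). The most abundant lower gene stood at 56.3 to 208 CPM in osa and sagrei and at 299.7 to 762 CPM in the others. Its means were 132 ± 61.2 and 454 ± 165 CPM, a log2 difference of -1.85 (SE 0.28, edgeR adjusted p = 0.000655). In neither gene did the sums of the sides overlap.

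The genes with the largest differences in each direction are named by identifier. They were the largest by log2 difference among same-side genes that separated all sums, all jaw libraries and all leg libraries, with at least 5 CPM on the higher side. For ENSACAG00000017263 the separation in jaw rested on 2 counts in sagrei 15 and 2 in cybotes 01, at 1.73 and 1.74 CPM. For ENSACAG00000006778 the separation in leg rested on 2 counts in osa 07 against 1 in chlorocyanus 08 and 1 in cybotes 01. Both lie below the floor of 3 counts. None of the named genes reached a mean of 10 counts per sum in each species. They entered the test through the side where they are high. ENSACAG00000010020 had almost no counts outside the clade. Its levels were 185, 285 and 147 CPM in osa 04, 05 and 07 and 123, 60.3 and 60.9 CPM in sagrei 15, 16 and 17. In chlorocyanus 04, 06 and 08 it had 6, 3 and 0 counts, and in cybotes 01, 03 and 08 it had 0, 0 and 2. The lowest clade sum, at 60.3 CPM, was far above the highest other sum, at 2.46 CPM. The osa and sagrei sums together held 2574 counts against 11 in the other species. The ratio of scaled levels was 243, with an exact 95% interval of 136 to 488 that covers counting error only. The edgeR log2 difference was 7.95 (SE 0.57, adjusted p = 4.1e-06), and 9.34 without cybotes 08. Each of the 11 counts outside the clade came from a leg library, and the 6 jaw libraries there had none.

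ENSACAG00000006778 had the second largest increase. It stood at 9.43, 25.1 and 10.9 CPM in osa 04, 05 and 07 and at 13.5, 7.22 and 7.79 CPM in sagrei 15, 16 and 17. Chlorocyanus 08 and cybotes 01 had 1 count each, and the other 4 sums had 0. The clade held 220 counts in all against 2, a ratio of scaled levels of 114 with an exact 95% interval of 31.3 to 949 for counting error. The edgeR log2 difference was 6.35 (SE 0.59, adjusted p = 3.37e-05). This SE is derived from F, and with 2 counts outside the clade it understates the counting error that the exact interval covers. The size of the log2 difference depended on the fit. It was 4.56 by voom on the 24 libraries with a block and 5.57 by voom on the sums. Without chlorocyanus 08 it was 7.17, and without cybotes 01 it was 7.34. Within osa its level was 17.8 to 42.5 CPM in jaw and 1.16 to 9.63 CPM in leg, while the sagrei ranges, 8.49 to 13.8 CPM in jaw and 5.68 to 13.1 CPM in leg, overlapped. Its clade difference did not differ between leg and jaw past the threshold (edgeR adjusted p = 1, and 0.339 with a block for each number).

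ENSACAG00000001334 had the largest decrease. Each osa sum held 1 count and the 3 sagrei sums held 0. In chlorocyanus it stood at 11.1, 10.8 and 9.29 CPM in 04, 06 and 08, and in cybotes at 18.4, 27.9 and 43.1 CPM in 01, 03 and 08. All chlorocyanus sums lay below all cybotes sums. The other species held 356 counts in all against 3 in the clade, a ratio of scaled levels of 114 with an exact 95% interval of 38.8 to 557. The edgeR log2 difference was -7.17 (SE 0.46, adjusted p = 5.21e-06). This SE is derived from F, and with 3 counts in the clade it understates the counting error that the exact interval covers. The log2 difference was -5.89 by voom on the sums and -4.83 by voom on the 24 libraries with a block. Outside the clade its level was higher in leg than in jaw for each of the 6 title numbers, at 11.7 to 71.7 CPM in leg and 2.72 to 7.81 CPM in jaw.

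ENSACAG00000017263 had the second largest decrease. Osa and sagrei were not called as different from each other in this gene (edgeR adjusted p = 0.061). All 3 osa sums had 0 counts, and sagrei 15, 16 and 17 had 5, 1 and 3, or 1.93, 0.361 and 0.865 CPM. Chlorocyanus 04, 06 and 08 stood at 3.69, 3.48 and 6.76 CPM and cybotes 01, 03 and 08 at 2.40, 6.37 and 13.0 CPM. The nearest sums across the divide, sagrei 15 and cybotes 01, stood at 1.93 and 2.40 CPM, close to the floor of 3 counts. The other species held 113 counts against 9, a ratio of scaled levels of 12.1 with an exact 95% interval of 6.15 to 27.1. The edgeR log2 difference was -4.82 (SE 0.73, adjusted p = 0.0011). It was -3.73 by voom on the sums and -3.15 by voom on the 24 libraries with a block. A fitted difference of a gene near 0 counts depends on the fit, and the ratio of pooled counts is the simpler measure. It was the only named gene not called in all species pairs, since sagrei against chlorocyanus had an adjusted p of 0.061.

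**Figure D4:**
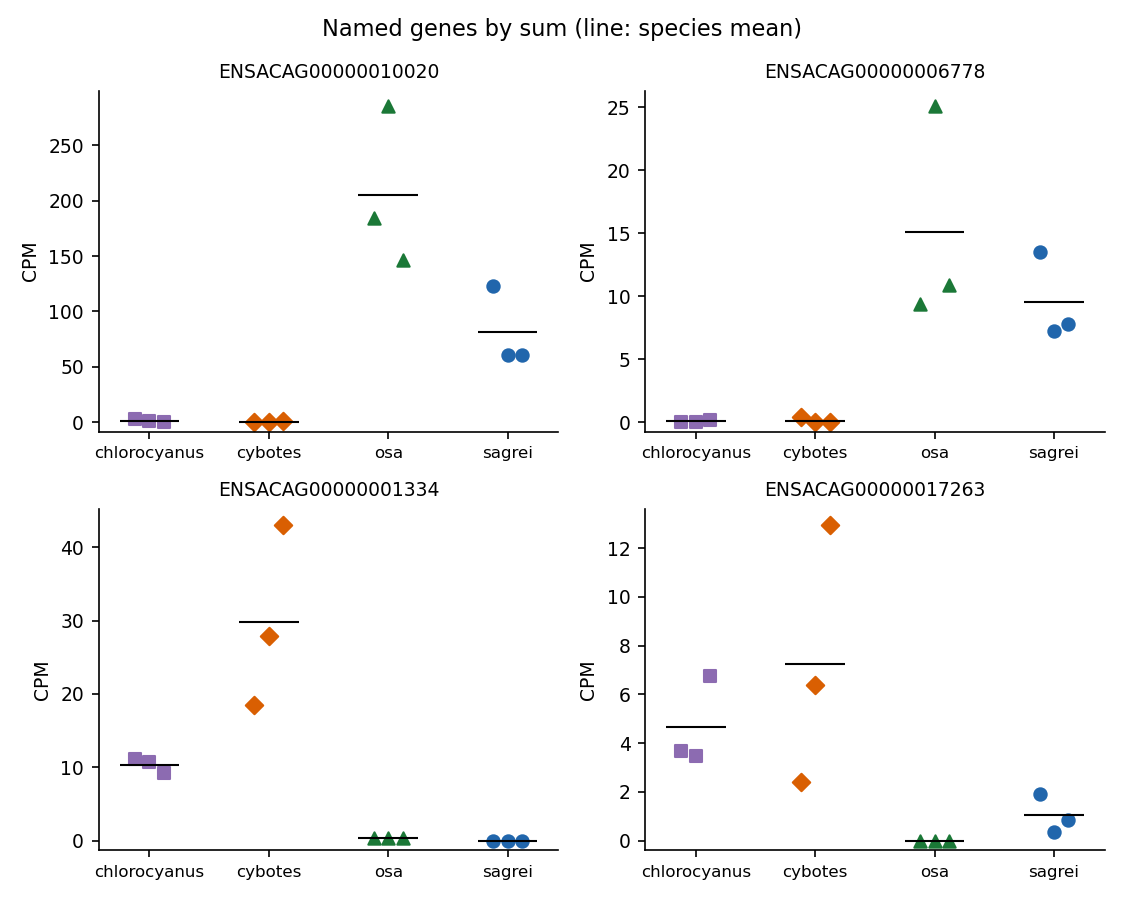
Each point is the level of 1 sum in CPM, by species, and the line is the mean of 3 sums; each panel has its own scale. ENSACAG00000010020 and ENSACAG00000006778 are high in osa and sagrei, and ENSACAG00000001334 and ENSACAG00000017263 in chlorocyanus and cybotes.

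Fitted on their own, both muscles carried the clade difference. The 12 jaw libraries called 1668 of 7805 genes (21.4%), 793 higher (10.2%) and 875 lower (11.2%) in osa and sagrei, of which 1330 were same-side. The 12 leg libraries called 1267 of 8568 (14.8%), 615 higher (7.18%) and 652 lower (7.61%), of which 1066 were same-side. Without a low-count filter the counts were 2267 in jaw and 1908 in leg. Of the 7602 genes tested in the sums and in each muscle, 273 higher and 313 lower genes were called and same-side in both muscles. No gene was called in opposite directions. Jaw and leg come from the same title numbers, so one muscle is no independent repeat of the other. The same-side genes, chosen on sums of these libraries, had median log2 differences of 1.11 in jaw and 1.09 in leg when higher, and of -1.20 and -1.10 when lower. The choice fixes the sign of these medians.

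The same-side genes were also looked up in the comparison of leg with jaw, which the choice of these genes did not use. Over 9086 genes tested in both fits, 11.3% were called for leg against jaw by the edgeR test, 600 higher and 427 lower in leg. Among the same-side genes it was 88 of 757 (11.6%) for those higher in osa and sagrei and 68 of 823 (8.26%) for those lower. With a block for each title number the shares were 25% of all genes, 24.7% of the higher and 22.4% of the lower genes. The differences between these shares were not tested. The comparison was added after other values had been seen.

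Whether the clade difference itself differed between leg and jaw was tested on the 24 libraries. A fit without a block ignores that the jaw and leg libraries of a number are paired. In it 1 gene of 9123 was called (0.011%), and 394 had an unadjusted p under 0.05. With a block for each title number, which takes out what the jaw and leg libraries of a number share, 55 genes were called (0.603%), and 1248 had an unadjusted p under 0.05. DESeq2 called 14 without the block. Of the 55 genes, 29 had the higher clade difference in leg and 26 in jaw, with a median absolute difference of 1.75 on the log2 scale. In 31 of the 52 that were tested in each muscle the estimated clade difference had opposite signs in jaw and leg. None of them was called in opposite directions in the fits of the single muscles. The choice of these genes favours a large difference and opposite signs, so both are a description. Among the 55, 10 were same-side genes of the sums, where same-side genes made up 17.1% of all genes tested on the sums.

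The gene called without a block was ENSACAG00000012034, which was singled out with its values known. In jaw it stood at 287, 450.4 and 273 CPM in chlorocyanus 04, 06 and 08 and at 326, 298 and 337 CPM in cybotes 01, 03 and 08. The jaw libraries of osa 04, 05 and 07 had 90.5, 100.1 and 137 CPM, and those of sagrei 15, 16 and 17 had 34.3, 47.5 and 33.3 CPM. Every jaw library of the clade thus lay below every other jaw library. In leg the sides overlapped, at 29.3 to 80.6 CPM in osa and sagrei and 31.5 to 113 CPM in the others. The clade log2 difference was -2.35 in jaw (SE 0.20, edgeR adjusted p = 1.21e-05) and -0.31 in leg (SE 0.21, adjusted p = 0.342). The difference between them was 2.03 (SE 0.28, adjusted p = 0.00191), and the adjusted p was 4.45e-05 in the blocked fit. Within the clade, the osa libraries lay above the sagrei libraries without overlap in jaw and in leg.

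**Figure D5:**
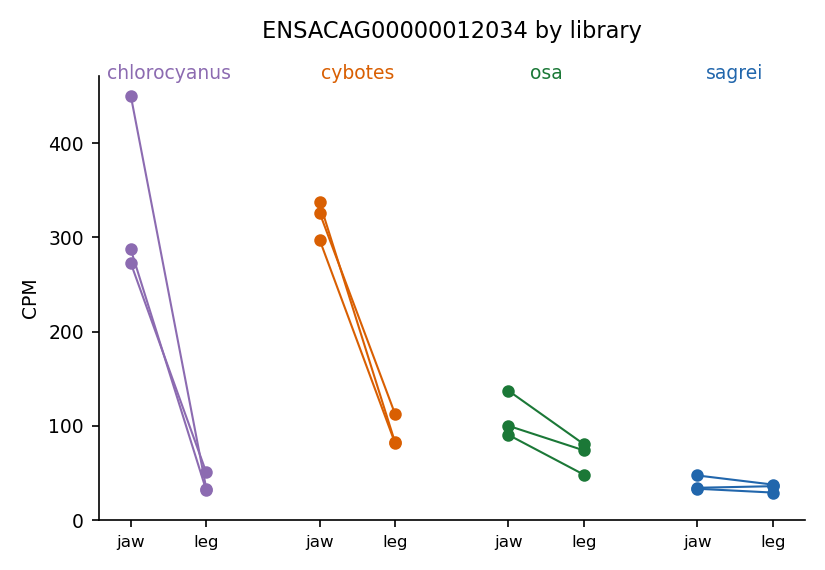
Level of ENSACAG00000012034 in CPM in each library, with a line joining the jaw and leg library of a title number. Jaw lies far above leg in chlorocyanus and cybotes, moderately above it in osa and at a similar level in sagrei.

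All species were counted on one set of identifiers, and this sets a limit to every difference above. A sequence difference shared by osa and sagrei that lets fewer of their reads map to a gene would look like lower expression in both. One shared by chlorocyanus and cybotes would look like higher expression in osa and sagrei. Whether either would act alike in jaw and in leg was not tested. With these files neither can be told apart from a difference in expression. The files do bear on how far detection differed. No gene had 0 counts in all 6 sums of osa and sagrei and at least 10 counts in each of the other 6 sums, and none showed the reverse. It was also so with a minimum of 5 counts, which includes the stricter ones. At lower levels, 6 of the same-side genes higher in osa and sagrei had 0 counts in all chlorocyanus and cybotes sums, and 2 of the lower genes had 0 in all osa and sagrei sums. By single species, 2 genes had 0 counts in the 3 chlorocyanus sums and at least 10 in each of the other 9, and 1 gene did so for osa. For cybotes and sagrei there was none.

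Of the same-side genes, 67 were at least 8-fold higher and 47 at least 8-fold lower in osa and sagrei, and 16 and 5 were at least 32-fold higher and lower. These folds are fitted values, which depend on a prior count where a side is near 0. At most 3 counts over the whole lower side were found in 18 of the 67 and 12 of the 47 genes. A mean of at least 10 counts per sum in each of the 4 species was found in 535 higher and 585 lower same-side genes. Among those, 2 were at least 8-fold higher and none was 8-fold lower, though a strong decrease itself takes a gene below this minimum. Of the genes called in all 4 species pairs, 43 of 73 higher and 46 of 90 lower genes had that mean count in each species. Refitting with only the genes that passed this minimum gave 1048 same-side genes, 499 higher and 549 lower, and 84 called in all species pairs.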

How the data were processed

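Counts per gene were deposited by the authors as 1 table of 25920 Ensembl-style identifiers and 24 columns, whose names equal the sample titles. The deposited counts are whole numbers with no normalization, and library totals ran from 1315319 to 1962685. STAR, which aligns reads across splice sites, is the tool listed per the submitters' processing notes. The sources used here give neither its version nor the genome build, annotation release, counting program or strand setting. Per the labels' protocols, total RNA came from whole muscle by Trizol extraction. In all libraries together 8688 identifiers had 0 counts.

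Counts of jaw and leg were added per title number. Genes were kept with filterByExpr over the 4 species, which left 9908, and scaled by TMM factors in edgeR 4.0.16 (R 4.3.3). One mean per species was fitted with the quasi-likelihood F-test. P-values were adjusted by Benjamini-Hochberg over all genes with a threshold of 0.05. Standard errors are the absolute log2 difference divided by the square root of F, and a prior count of 2 was added for log2 CPM. Where a side is near 0 counts, such a standard error can be smaller than the counting error. The muscles alone were fitted the same way, and the difference between muscles on 8 group means of the 24 libraries. Scripts were tested on simulated data.

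Jaw and leg libraries of a title number deviated together from their group means, with correlations of 0.296 to 0.740 over 12 pairs (median 0.445), and were taken as paired. Replicate sums of a species differed beyond sampling noise in all 12 pairs (chi-square divided by its degrees of freedom, 10.4 to 85.9). Since the labels do not say how replicates differ otherwise, p-values measure the spread between these sums. Alternatives were other scalings, DESeq2 1.42.0, limma voom 3.58.1, other filters, the block and each title number left out. The members, designs and lists were chosen with earlier results of these data known. Named genes were those with the largest change in each direction, 2 each, among same-side genes with no overlap in sums, jaw or leg and at least 5 CPM on the higher side. Gene lists fixed by symbol were not used, since the files pair identifiers with no symbols.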

Additional observations from a re-analysis of the deposited data

Results flagged for a closer look

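ENSACAG00000006778 stood out in 1 of the 16 groups of 6 sums tested for a distant value, where chance gives about 1 in 20. The osa 05 sum was at 25.1 CPM, while the other 5 osa and sagrei sums lay between 7.22 and 13.5 CPM. Without osa 05 the gene was called in the same direction.

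For ENSACAG00000012034 the clade difference differed between the muscles, by 2.03 on the log2 scale (leg minus jaw, edgeR adjusted p = 0.00191). Its adjusted p ran from 7.22e-09 to 0.0267 over the other settings.

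In the fit with a block for each title number, the clade difference differed between leg and jaw for 55 genes, 29 upward in leg and 26 downward.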

How the results depend on the processing

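The counts for the clade contrast, same-side and non-overlapping genes stayed within 1.5 times under the other scalings, DESeq2, voom on sums, no low-count filter and equal weight of the muscles. Leaving out 1 title number gave 1663 to 2245, 1349 to 1788 and 538 to 661 genes. Non-overlap is easier to meet with fewer sums, and its range lay above the 495 genes of the full set. This range is therefore no measure of stability. A further fit took the title number as a replicate block (random effect, voom on 24 libraries). Its contrast, same-side and non-overlapping counts were 2173, 1702 and 465. It called 154 in all species pairs, of which 113 were among the 163, with 156 of these tested. The block changed none of the calls of the 4 named genes. Voom on the 24 libraries without it, which counts jaw and leg of a number as separate samples, gave 3340 genes in the contrast and 380 in all species pairs. Requiring a mean of 10 counts in each species tests fewer genes and gave 1297, 1048, 319 and 84. None of the 4 named genes was tested under this minimum. Genes called in all species pairs numbered 98 to 186 with 1 title number left out. A further scaling used library sizes that leave out the 20 most abundant genes, without TMM factors. Under it 1149 genes were higher and 935 lower in the contrast. Of same-side genes there were 904 and 726, and 77 and 71 were called in all species pairs. DESeq2 called 86 and 123 in all species pairs. Between 90 (without cybotes 01) and 133 (without chlorocyanus 04) of the 163 were kept. Osa against sagrei gave 795 to 1757. Without a low-count filter the contrast gave 2267 genes in jaw and 1908 in leg. The difference between muscles gave 55 genes with the block, 19 with the block as a random effect, 14 by DESeq2, 25 without a filter, and 1 to 3 with 1 title number left out. The cause of these changes was not tested otherwise. At this depth 3 counts are 0.631 to 1.23 CPM, which limits the precision of genes near that level.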
